A study of Mus musculus with 9 samples.

Results

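The 10 genes described here, Cdkn1a, Cdkn1b, Cdkn2a, Cdkn2b, Trp53, Mdm2, Gadd45a, Gadd45b, Rb1 and Lmnb1, belong to the machinery of cell cycle arrest and senescence. Every ATAC-seq peak that the authors' annotation named for one of them was taken, together with any peak that lay over one of their transcription start sites (TSSs). This gave 225 of the 253457 peaks in 9 libraries, 71 over a TSS of the gene (promoter peaks) and 154 elsewhere (distal peaks). The genes were picked by name, with earlier results of these data known, and the rule that collects their peaks uses no measured value.

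The study asked how loss of the transcription factor KLF4 from endothelial cells (ECs) and age change the accessible chromatin of mouse brain ECs. Omni-ATAC-seq cuts accessible DNA with the transposase Tn5, and each library was deposited as 1 list of broad peaks. Mice on a C57BL/6J background carried the tamoxifen-inducible Cdh5-CreERT2 driver, which acts in vascular endothelium, and all groups, controls included, had received tamoxifen. The study used both sexes, and the sex of the animals behind these libraries is not stated. EC-K4KO mice also carried floxed Klf4, whereas WT Cre mice carried the driver without floxed Klf4. WT Cre was represented by 2 young and 2 old libraries and EC-K4KO by 3 young and 2 old ones, each from nuclei of flow-sorted brain ECs. The study calls the libraries biological replicates but does not say which animals entered each, so the p-values measure only the spread between these libraries. In such bulk libraries a site open in fewer cells and a site less open in each cell cannot be told apart. The library names carry a prefix that goes with age. The labels do not say whether it marks a batch, and if it does, batch and age cannot be told apart.

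The young lists held 6157 and 9598 peaks for WT Cre and 23848 to 27992 for EC-K4KO, and the old lists 32555 and 43893 for WT Cre and 39079 and 45026 for EC-K4KO. The lists hold no read counts, so the sequencing depth behind each is unknown, and the 2 young WT Cre lists stood apart from the rest by their shortness. Klf4 itself had a peak over its TSS in all 9 libraries, and such a peak does not show whether the floxed part was deleted. Of 10 endothelial markers, 7 and 7 had a TSS peak in young WT Cre, 9 to 10 in young EC-K4KO and all 10 in the old libraries. Microglial markers had no TSS peak in any library. Of the neuronal markers 1 was open in young EC-K4KO replicate 1 and 2 in old EC-K4KO replicate 1, and 1 oligodendrocyte marker was open in young EC-K4KO replicate 3 and 1 in old EC-K4KO replicate 1, with none in WT Cre. Furthermore, of 6 mural and 6 astrocyte markers 0 and 0 to 1 were open in the young libraries and 0 to 3 and 1 to 3 in the old ones. The counts for endothelial, mural and astrocyte markers were higher in the longer, older lists, as were the counts of open member genes below, and their part in those was not tested.

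Cells leave the cycle when inhibitors of cyclin-dependent kinases (CDKs) keep the retinoblastoma protein RB active and RB in turn holds back the E2F factors. The tumour suppressor p53 drives the CDK inhibitor p21, the GADD45 stress proteins and its own antagonist MDM2, while p16INK4a, p15INK4b and p19ARF, encoded side by side at the Cdkn2a and Cdkn2b loci, link ageing and stress to RB and p53. Senescent cells lose lamin B1, the product of Lmnb1, from the nuclear lamina. In the vessel wall senescent ECs are known for a proinflammatory secretory state.

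The sequences on which the results below turn are 2 promoters of Cdkn1a, since only 1 of them was open, and 4 distal windows upstream of Cdkn2b, Gadd45a and Gadd45b that were recurrent or unevenly distributed over the groups. They are GRCm38 (mm10) sequence, the promoters as listed by RefSeq, read on the strand of the gene. In the upstream promoter of Cdkn1a, capitals mark matches to the p53 response element (a pair of decamers up to 13 bases apart with up to 2 mismatches outside the fixed C and G). In the others, capitals mark matches on either strand to CCNCNCCC (bound by KLF-type factors), CCGGAA (ETS), TTCCCGC or TTGGCGC (E2F), and TGANTCA (AP-1).
Cdkn1a, 250 bases before the upstream start (chr17:29090729-29090978, plus strand): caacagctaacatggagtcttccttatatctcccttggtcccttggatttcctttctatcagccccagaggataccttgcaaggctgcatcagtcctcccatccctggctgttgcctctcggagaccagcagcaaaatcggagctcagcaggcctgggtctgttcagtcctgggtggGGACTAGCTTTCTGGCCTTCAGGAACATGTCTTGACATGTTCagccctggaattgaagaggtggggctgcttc
Cdkn1a, 250 bases before the second start (chr17:29093519-29093768, plus strand): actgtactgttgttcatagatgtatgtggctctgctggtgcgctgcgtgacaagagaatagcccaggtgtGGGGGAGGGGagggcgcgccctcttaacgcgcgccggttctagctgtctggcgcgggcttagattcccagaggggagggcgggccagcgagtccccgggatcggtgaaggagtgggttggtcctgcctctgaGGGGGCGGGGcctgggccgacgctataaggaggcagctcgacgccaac
Cdkn2b, 300 bases of the region 120627 bp upstream (chr4:89431516-89431815, minus strand): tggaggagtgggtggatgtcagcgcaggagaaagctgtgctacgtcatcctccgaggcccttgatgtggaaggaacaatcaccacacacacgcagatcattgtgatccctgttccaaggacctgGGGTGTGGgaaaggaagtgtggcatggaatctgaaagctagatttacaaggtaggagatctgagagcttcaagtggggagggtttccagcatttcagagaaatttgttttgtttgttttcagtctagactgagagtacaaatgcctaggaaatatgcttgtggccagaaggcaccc
Cdkn2b, 300 bases of the region 167948 bp upstream (chr4:89478837-89479136, minus strand): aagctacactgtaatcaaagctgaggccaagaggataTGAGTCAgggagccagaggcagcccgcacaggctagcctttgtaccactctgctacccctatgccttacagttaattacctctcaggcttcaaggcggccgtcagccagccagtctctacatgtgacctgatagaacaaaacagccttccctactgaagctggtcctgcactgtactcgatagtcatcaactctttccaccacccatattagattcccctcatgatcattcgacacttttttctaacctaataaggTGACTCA
Gadd45a, 300 bases of the region 68210 bp upstream (chr6:67105466-67105765, minus strand): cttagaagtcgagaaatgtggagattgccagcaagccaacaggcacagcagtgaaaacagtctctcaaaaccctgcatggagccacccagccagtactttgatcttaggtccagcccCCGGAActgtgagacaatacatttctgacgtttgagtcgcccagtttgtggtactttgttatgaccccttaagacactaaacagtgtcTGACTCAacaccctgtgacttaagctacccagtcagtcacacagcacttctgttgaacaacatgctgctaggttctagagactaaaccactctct
Gadd45b, 300 bases of the region 1538 bp upstream (chr10:80928386-80928685, plus strand): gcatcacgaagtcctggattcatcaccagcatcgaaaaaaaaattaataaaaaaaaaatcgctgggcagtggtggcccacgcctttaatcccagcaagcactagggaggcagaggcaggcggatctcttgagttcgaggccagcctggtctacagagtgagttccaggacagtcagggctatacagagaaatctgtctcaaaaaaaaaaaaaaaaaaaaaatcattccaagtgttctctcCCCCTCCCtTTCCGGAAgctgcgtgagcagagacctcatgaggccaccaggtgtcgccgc

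Promoter peaks of the 10 genes were wide and strong, and distal peaks narrow and weak. The median width was 744 bp over a TSS and 357 bp elsewhere. The median fold enrichment over the local background, as the peak caller gave it, was 6.13 against 4.32. The median place in the list, ordered by the −log10 p of each peak and given as a percentage of the list from 0 (strongest) to 100 (weakest), was 13.1% for promoter and 47.5% for distal peaks. The promoter peaks had the larger median width and the stronger median rank in 9 of 9 libraries. Over all genes, too, peaks over a TSS were wider in every library, with medians of 389.5 to 678 bp against 346 to 451 bp for all peaks. Peaks that ended just short of a start were counted as distal. The authors' annotation, which follows the centre of a peak, called 50.7% of the promoter peaks promoter-TSS, 26.8% intron and 22.5% exon, since many of them reached far into the gene. Of the distal peaks, 74.0% were intergenic and 20.1% intronic.

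The number of the 10 genes with a peak over a TSS was 5 and 6 in young WT Cre, 7, 8 and 9 in young EC-K4KO, and 9 in each of the 4 old libraries. The young WT Cre counts lay below all others. Over all 21911 protein-coding genes the share with a TSS peak rose alike, from 16.6% and 24.1% in young WT Cre to 36.7% to 44.8% in young EC-K4KO and 46.7% to 51.0% in the old libraries. When each list was cut to its 6157 strongest peaks, the length of the shortest, the counts were 5 and 6 in young WT Cre, 7, 6 and 6 in young EC-K4KO and 5 in each old library. At equal length the old libraries thus had no more open member genes than young WT Cre, and over all genes the share lay between 16.6% and 24.0%. Open in all 9 libraries were 5 genes, Cdkn1a, Cdkn1b, Mdm2, Gadd45a and Lmnb1, as were 27% of the 11931 genes open in at least 1.

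**Figure D1:**
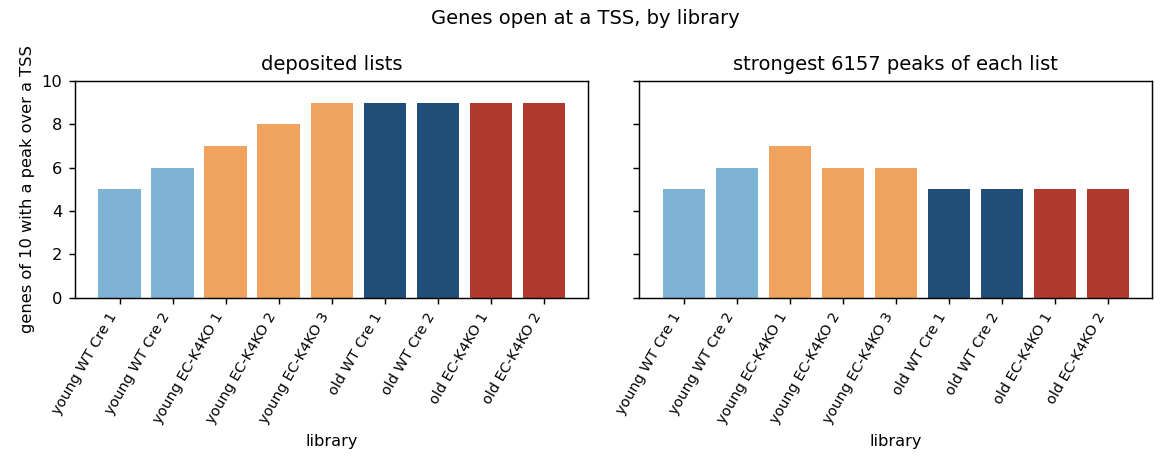
Bars give the number of the 10 genes with a peak over a TSS in each library, for the deposited lists (left) and for the 6157 strongest peaks of each list (right). The deposited counts run from 5 in young WT Cre to 9 in the old libraries, and at equal length from 5 to 7.

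**Figure D2:**
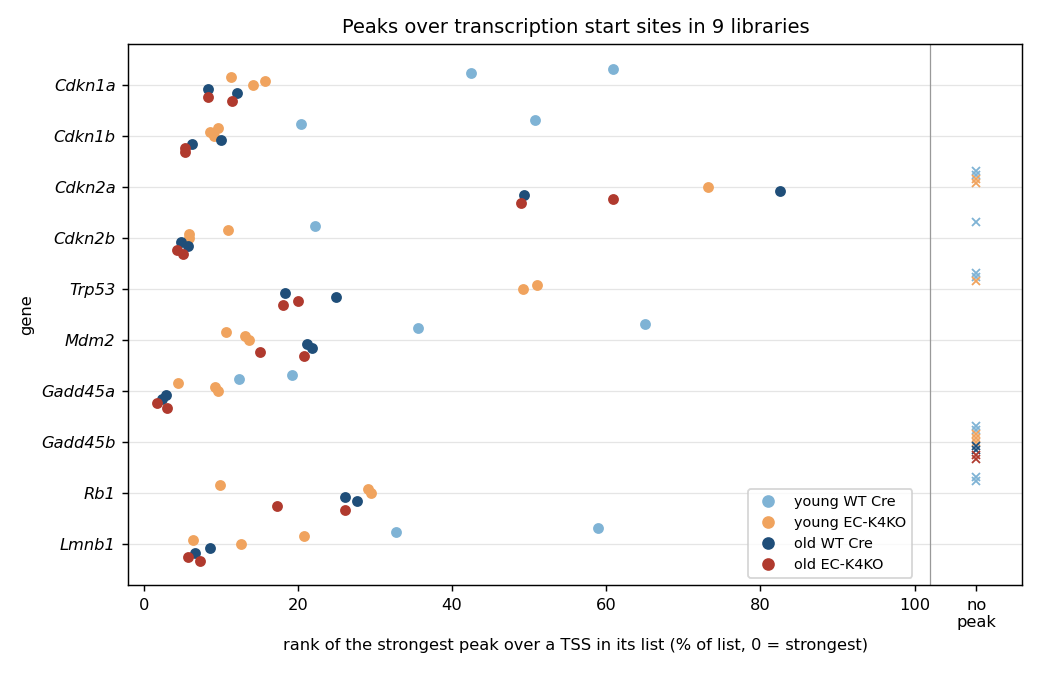
Each point is the place of a gene's strongest TSS peak in the list of 1 library (horizontal axis, percent of the list, 0 the strongest), coloured by group, and a cross marks a library with no such peak. Gadd45a lies between 1.76% and 19.2% in all libraries, Cdkn2a between 48.97% and 82.5% where present, and Gadd45b has crosses only.

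Among the CDK inhibitors, Cdkn1a (p21, which stops CDKs after p53 activation; chromosome 17, 29090979 to 29100727) was open only at its second promoter. No library had a peak within 2500 bp of the upstream start at 29090979. The window before that start, printed above, holds a p53 element without mismatch at bases 178 to 209, which 0.0731% of 32817 RefSeq promoter windows of 300 bases hold. An overlapping element with 1 mismatch lies at bases 200 to 219. The covered promoter around 29093769 holds 4 KLF-type matches, in overlapping pairs, and no p53 element in the same window, and 49.5% of promoters hold at least 1 KLF-type match. Peaks over the second start were 1958 and 1968 bp wide in young WT Cre, 307, 2093 and 2093 bp in young EC-K4KO, 2141 and 2106 bp in old WT Cre, and 2144 and 2127 bp in old EC-K4KO. They reached through exon and intron sequence downstream of the start in 8 libraries, and in young EC-K4KO replicate 1 a separate peak of 900 bp lay in the intron. The list rank was 60.9% and 42.4% in young WT Cre, 11.3% to 15.7% in young EC-K4KO and 8.32% to 12.1% in the old libraries.

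Cdkn1b, which encodes the CDK inhibitor p27 (chromosome 6, 134920401 to 134925513), had a compact promoter peak in every library. Its width was 696 and 609 bp in young WT Cre, 607, 734 and 940 bp in young EC-K4KO, 744 and 740 bp in old WT Cre and 766 and 756 bp in old EC-K4KO, with fold enrichments from 4.59 to 10.6. It had no distal peak in any library.

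Cdkn2b, which encodes p15INK4b (chromosome 4, 89306299 to 89311039), had a promoter peak among the strongest of the list. Its list rank, in lists of different lengths, was 22.3% in young WT Cre replicate 2, 10.9%, 5.86% and 5.87% in young EC-K4KO, 4.86% and 5.72% in old WT Cre, and 4.38% and 5.13% in old EC-K4KO. The remaining library, young WT Cre replicate 1, had a peak of 445 bp that ended at 89311036, just inside the start at 89311039, so it was counted as distal. With peaks within 1000 bp of a start counted, Cdkn2b was open in 9 of 9 libraries. At the list length of 6157 its promoter stayed open in 8 libraries.

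Cdkn2a (chromosome 4, 89274471 to 89294653) has separate starts for p16INK4a and p19ARF, and peaks at both were weak. No young WT Cre library, and neither young EC-K4KO replicate 1 nor 2, had a peak within 2500 bp of either. The p16INK4a start at 89282192 was covered in young EC-K4KO replicate 3 (278 bp, rank 73.2%) and old WT Cre replicate 1 (302 bp, rank 82.5%). The p19ARF start at 89294653 was covered in old WT Cre replicate 2 and both old EC-K4KO libraries by peaks of 770, 1061 and 784 bp at ranks of 49.3%, 60.9% and 48.97%. Further peaks ended just upstream of a start without covering it, by 52 and 55 bp at p16INK4a in both old EC-K4KO libraries and by 24 and 6 bp at p19ARF in young EC-K4KO replicate 3 and old WT Cre replicate 1. All 4 old libraries and 1 of 5 young ones were therefore open at the locus, but at the equal list length Cdkn2a was open in 0 of 9. Among all genes, 306 shared its presence over the 9 libraries, none of them in the pathway list described further on.

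**Figure D3:**
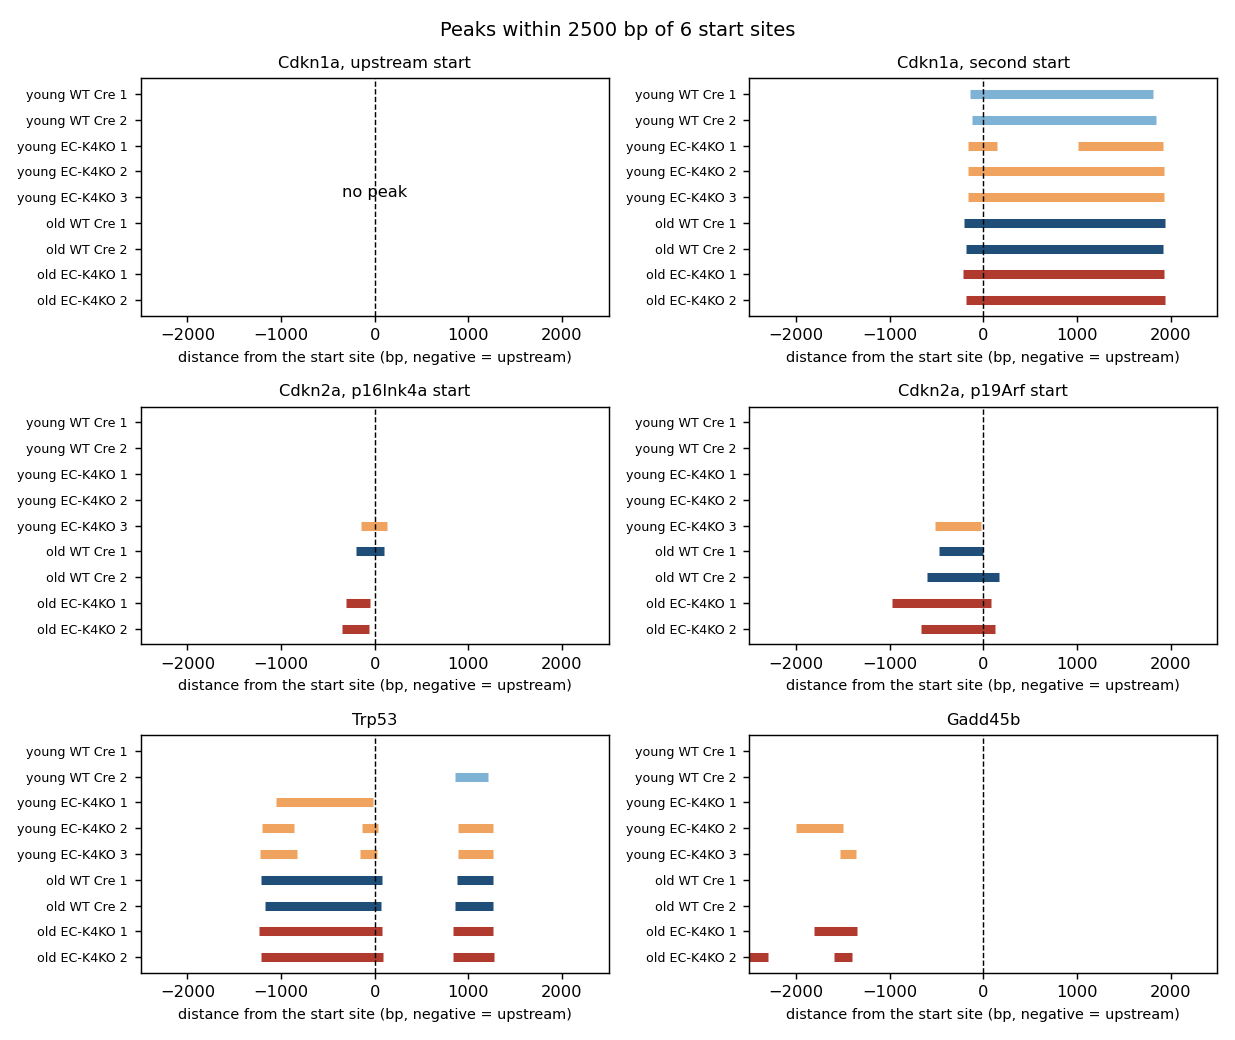
Bars show where peaks lie within 2500 bp of 6 start sites (dashed lines), 1 row per library, with distance from the start in bp on the horizontal axis. The upstream start of Cdkn1a has no peak, the Cdkn2a peaks are found in old libraries and young EC-K4KO replicate 3, and peaks upstream of Gadd45b are found only in EC-K4KO libraries.

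Of the p53 axis, Trp53 itself (p53; chromosome 11, 69580359 to 69591873) was open at its start in 0 of 2 young WT Cre, 2 of 3 young EC-K4KO and all 4 old libraries. In young EC-K4KO replicates 2 and 3 the peaks were 164 and 178 bp wide and a separate peak lay upstream over the divergent gene Wrap53, by whose name the authors' annotation called it. In the old libraries 1 peak of 1240 to 1323 bp, also named for Wrap53, spanned both, at list ranks of 18.1% to 24.97%. In young EC-K4KO replicates 2 and 3 the narrow Trp53 peaks ranked at 51.0% and 49.3%, and the separate Wrap53 peaks at 31.3% and 44.2%. The old ranks belong to the joint peak in longer lists, so they cannot be set against those of the Trp53 peak alone. Young EC-K4KO replicate 1 had a peak of 1035 bp that ended 18 bp before the start. With peaks within 1000 bp of a start counted, Trp53 was open in 8 of 9 libraries, and at the equal list length in 0 of 9. A second region in the first intron, 1016 bp past the start (69581193 to 69581629), was found in 7 libraries, 1 of them young WT Cre, at ranks from 16.8% to 57.6%. E2f4 and Zmat3 had the same presence over the 9 libraries as Trp53, and so had 1248 genes of all.

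Mdm2, the ubiquitin ligase that removes p53 (chromosome 10, 117688875 to 117710758), was open in all 9 libraries, with lower percentiles of strength in the old ones. To compare libraries without the effect of list length, the strongest TSS peak of each of the 3223 genes open in all 9 libraries was ranked within its library as a percentile from 0 (weakest) to 100 (strongest). Mdm2 stood at percentiles of 16.6 and 31.0 in young WT Cre, 41.96, 28.9 and 22.4 in young EC-K4KO, 4.62 and 7.11 in old WT Cre, and 9.06 and 5.18 in old EC-K4KO. All 4 old values lay below all 5 young values. The mean difference within genotype, old minus young, was -20.9 points (two-sided exact permutation test over 60 arrangements of the age labels within genotype, p = 0.0167, the smallest these permit). After Benjamini-Hochberg adjustment over the 3223 promoters the adjusted p was 0.117, so the exact permutation test did not call the difference. With no overlap between ages in either genotype, 12.3% of the promoters were lower and 11.7% higher in old libraries. In lists of 6157 peaks Mdm2 was open in all 5 young and in none of the 4 old libraries, a pattern not counted over all genes. Its fold enrichment overlapped between ages, at 4.09 and 5.12 in young WT Cre, 5.48 to 7.53 in young EC-K4KO and 5.05 to 7.63 in the old libraries. Its list rank, in lists of different lengths, was 65.1% and 35.6%, 10.6% to 13.7% and 15.1% to 21.9% in the same order. The peak did not narrow, with widths of 692 and 790 bp in young WT Cre, 853 to 1053 bp in young EC-K4KO and 979 to 1104 bp in the old libraries, and it covered the start and the beginning of the gene throughout.

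Gadd45a, a p53-induced stress protein that slows the G2 to M transition (chromosome 6, 67035096 to 67037406), had the strongest promoter of the 10 genes by list rank in 7 of 9 libraries, and Cdkn2b in the other 2. By fold enrichment Gadd45a led in 3 libraries and Cdkn2b in 6. Its list rank was 19.2% and 12.4% in young WT Cre, 4.44% to 9.68% in young EC-K4KO and 1.76% to 2.98% in the old libraries. Its percentile was 70.3 and 70.7 in young WT Cre, 73.0, 44.5 and 37.7 in young EC-K4KO, 69.0 and 79.5 in old WT Cre, and 79.8 and 71.7 in old EC-K4KO. The young EC-K4KO values spanned those of young WT Cre, and EC-K4KO overlapped between the ages.

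Gadd45b (chromosome 10, 80930073 to 80932204), the stress-induced paralogue, had no peak over its TSS in any library, although GC content around its starts was 60.5% and only 17.7% of genes with 60 to 70% GC there were open in none. It had upstream peaks in the 5 EC-K4KO libraries. They stood at places 14615 to 33004 of their lists, numbers larger than the length of both young WT Cre lists. Whether their absence there went with the short lists was not tested. Region 1538 bp upstream (chromosome 10, 80928076 to 80928723) was called in young EC-K4KO replicates 2 and 3 and both old EC-K4KO libraries, and region 2734 bp upstream in young EC-K4KO replicate 1 and old EC-K4KO replicate 2. Fold enrichments were 3.08 to 4.32 and list ranks 57.8% to 81.4%, so all were weak. A peak centred in the 5000 bp upstream of a start, over no TSS, was found in all 5 EC-K4KO and none of the 4 WT Cre libraries for 1 of 4700 genes with such a peak (0.0213%), and that gene was Gadd45b, which was singled out after its values were seen. The reverse pattern held for 8 genes. With the 7 longer lists cut to 23848 peaks, a Gadd45b peak was left in the 3 young EC-K4KO libraries and in neither old EC-K4KO library, so old EC-K4KO and old WT Cre were both at 0 of 2. The printed window at 1538 bp holds a KLF-type match at bases 241 to 248 beside a pair of overlapping ETS matches from base 250 to 257.

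Rb1, the retinoblastoma gene (chromosome 14, 73195502 to 73325822), had no TSS peak in young WT Cre and 1 in each of the 7 other libraries, a pattern shared by 17% of genes open in at least 1 library. Its promoter has the highest GC content of the 10, 80.7% over 300 bases. Widths were 499, 616 and 598 bp in young EC-K4KO, 567 and 696 bp in old WT Cre and 597 and 602 bp in old EC-K4KO, and list ranks ran from 9.95% to 29.4%. Ranks in old EC-K4KO, 17.3% and 26.09%, were just stronger than those in old WT Cre, 26.14% and 27.7%, and the young EC-K4KO ranks spanned both. At the equal list length it was open in 1 library, young EC-K4KO replicate 1. Cdkn1c, Rbl2 and Ccnb1 were among the 14 pathway genes with the same presence. Lmnb1 (lamin B1; chromosome 18, 56707813 to 56753424) was open in all 9 libraries. Its list rank was 58.9% and 32.7% in young WT Cre, 20.8%, 6.36% and 12.7% in young EC-K4KO, 8.55% and 6.67% in old WT Cre, and 5.80% and 7.29% in old EC-K4KO. Its percentile was 22.2 and 34.7 in young WT Cre, 13.5, 59.8 and 25.9 in young EC-K4KO, 30.2 and 50.6 in old WT Cre, and 44.5 and 41.6 in old EC-K4KO. The groups overlapped, and the old minus young difference was 11.0 points (exact permutation test, p = 0.3, adjusted p = 0.493). Promoter sequences of Rb1 and Lmnb1 are not printed and were not scanned for motifs.

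**Figure D4:**
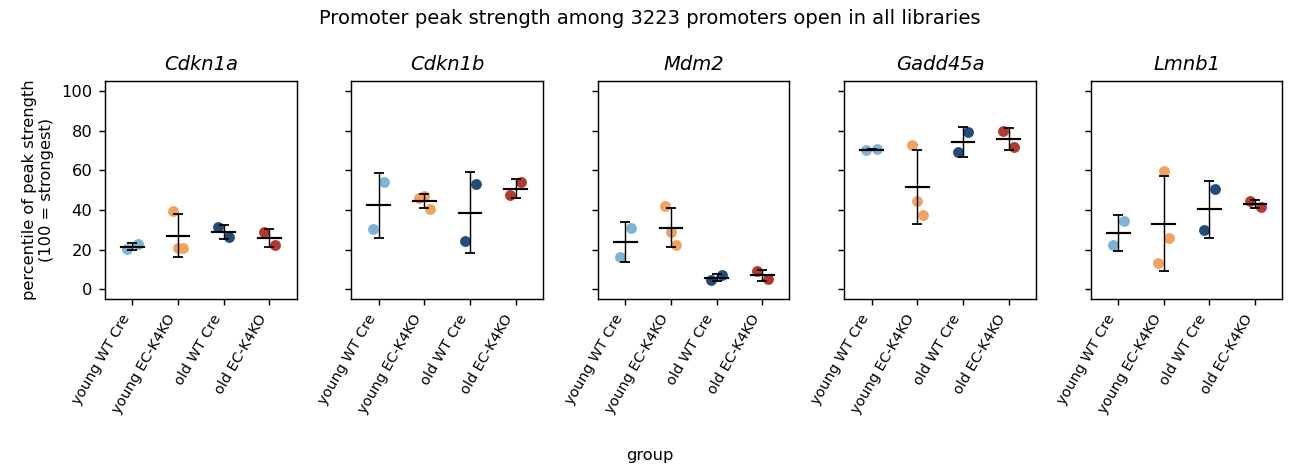
Points give the percentile of promoter peak strength (vertical axis, 100 the strongest) in each library for the 5 genes open in all 9, by group, with group means (bars) and SDs (whiskers). Mdm2 lies at 16.6 to 41.96 in the young libraries and at 4.62 to 9.06 in the old ones, and the other genes overlap between ages in at least 1 genotype.

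The genotype comparison, EC-K4KO against WT Cre within age, called none of the 5 genes open in all libraries. Percentile differences, EC-K4KO minus WT Cre, were 1.32 points for Cdkn1a, 7.27 for Cdkn1b, 4.28 for Mdm2, -8.65 for Gadd45a and 3.66 for Lmnb1 (exact permutation test, p from 0.383 to 0.85, adjusted p from 0.725 to 0.947). None of the 5 was free of overlap at both ages, as were 3.16% of the promoters in the higher and 4.34% in the lower direction. Old minus young, Cdkn1a differed by 2.97 points, Cdkn1b by 1.24 and Gadd45a by 13.9 (exact permutation test, adjusted p from 0.388 to 0.904). Over all 3223 promoters 0 (0%) passed an adjusted p of 0.05 in either comparison, and 295 for genotype (9.15%) and 752 for age (23.3%) had an unadjusted p under 0.05. The smallest adjusted p over all promoters was 0.316 for genotype and 0.117 for age in the exact permutation test.

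Widths in bp were larger in the longer lists. The median difference over all promoters was 126 bp for EC-K4KO minus WT Cre and 170.4 bp for old minus young libraries. Of all promoters, 34.1% of promoters were wider in EC-K4KO with no overlap at either age and 46.1% were wider in old with no overlap in either genotype, against 0% and 0.031% narrower. Among the 5 genes, only Cdkn1a was wider in old libraries without overlap, and with a difference of 399 bp it was not called (exact permutation test, p = 0.35, adjusted p = 0.391). Without young EC-K4KO replicate 1, whose Cdkn1a peak was 307 bp wide, the difference was 101.5 bp. Mdm2 was 199 bp wider in old libraries (exact permutation test, p = 0.05, adjusted p = 0.0954) and 113.5 bp wider in EC-K4KO (exact permutation test, p = 0.0833, adjusted p = 0.144). Lmnb1 was 369 bp narrower in old libraries, with widths of 1466 and 445 bp in young WT Cre, 1564, 506 and 734 bp in young EC-K4KO and 490 to 674 bp in the old ones (exact permutation test, p = 0.417, adjusted p = 0.458). The 2 widest Lmnb1 peaks, in young WT Cre replicate 1 and young EC-K4KO replicate 1, reached 1234 bp past the start, where 6 other libraries had a separate intronic peak. The interaction of genotype and age was called for none of the 5 genes in percentile (exact permutation test, p from 0.233 to 0.933, adjusted p from 0.714 to 0.993) or width (p from 0.35 to 0.933 in the exact permutation test), and for 0 of the 3223 promoters. For no promoter of the 3223 did an adjusted p for width fall under 0.05, in either comparison, with 1200 (37.2%) for genotype and 1379 (42.8%) for age at an unadjusted p under 0.05.

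Distal peaks of the 10 genes numbered 3 and 5 in young WT Cre, 13, 19 and 18 in young EC-K4KO, 20 and 18 in old WT Cre, and 30 and 28 in old EC-K4KO. The 4 groups did not overlap except for young EC-K4KO and old WT Cre. Per 1000 distal peaks of the list the numbers were 1.04 and 1.04, 0.789, 1.15 and 0.953, 0.582 and 0.790, and 0.870 and 0.969 in the same order. The young WT Cre lists, the shortest, held the fewest distal peaks, but among the old libraries the counts did not follow list length. Old WT Cre replicate 1 had 20 in a list of 43893 peaks, and old EC-K4KO replicate 2 had 28 in a list of 39079. The cause was not tested. At the equal list length 0 to 4 distal peaks were left per library. Merged over libraries by at least 1 bp, the distal peaks formed 48 regions, of which 20 were seen in 1 library and 14 in 5 or more, against 13.7% of 84038 distal regions of all genes. No region was found in all 9 libraries, as were 1.45% of all, and 3 were absent from both young WT Cre libraries and present in all 7 others, as were 2.04% of all. Of the 14 recurrent regions, 9 were absent from both young WT Cre libraries and 13 were in all 4 old libraries, as were 73.1% and 94.4% of the 11473 recurrent regions of all genes. They lay at Cdkn2b (8 of its 15 regions), Gadd45a (3 of 8), Trp53, Rb1 and Lmnb1 (1 each).

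The recurrent regions named for Cdkn2b formed a chain in the DNA beyond its promoter, 38070 to 175009 bp upstream, part of it inside the noncoding gene Gm12610. Regions 38070 bp (chromosome 4, 89348822 to 89349302) and 120627 bp upstream (89431392 to 89431932) were found in 8 libraries, and those 136129 bp (89446908 to 89447400) and 158998 bp upstream (89469705 to 89470279) in every library except the young WT Cre ones. Regions 111024, 134270 and 175009 bp upstream were each found in 6 libraries, 2 young EC-K4KO and all 4 old ones. HOMER names a distal peak for the nearest TSS, so the lists do not tell which gene such a region serves.

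The region 120627 bp upstream of Cdkn2b was stronger in the old lists, as 1 of 6 regions of the 10 genes that could be ranked. Its fold enrichment was 4.24 in young WT Cre replicate 2, 3.22, 5.05 and 6.72 in young EC-K4KO, 8.83 and 10.6 in old WT Cre, and 11.6 and 10.6 in old EC-K4KO. Its list rank was 29.6% to 60.7% in the young libraries and 6.30% to 8.86% in the old ones, in lists of different lengths. Among the 4044 distal regions found in every library except the young WT Cre ones, its percentile was 19.6, 27.0 and 46.9 in young EC-K4KO, 85.5 and 86.8 in old WT Cre and 83.0 and 80.6 in old EC-K4KO. Of those regions, 16.7% were higher and 17.2% lower in all 4 old than in all 3 young libraries. This percentile was introduced after the values of the regions were seen and is given without a test. The other 5 regions that could be ranked in this way, 3 of Cdkn2b and 2 of Gadd45a, overlapped between ages. The printed window holds 1 KLF-type match, GGGTGTGG at bases 125 to 132, and no other match.

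The region 167948 bp upstream of Cdkn2b (89478794 to 89479182) was called in all 5 EC-K4KO and none of the 4 WT Cre libraries. Of 84038 distal regions of all genes, 15 (0.0178%) had this pattern and 8 the reverse one, and this region was singled out after its values were seen. Fold enrichments were 3.25, 3.91 and 5.64 in young EC-K4KO and 4.34 and 4.94 in old EC-K4KO, and list ranks ran from 40.6% to 64.7%, so the peak was of middling to low strength in each list. Its places in the lists, 11022 to 24853, are numbers larger than the length of both young WT Cre lists. Whether its absence there went with the short lists was not tested. With the 7 longer lists cut to 23848 peaks it was left in 3 of 3 young EC-K4KO, 1 of 2 old EC-K4KO and 0 of 2 old WT Cre libraries. Its window holds 2 AP-1 matches, at bases 38 to 44 and 294 to 300.

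**Figure D5:**
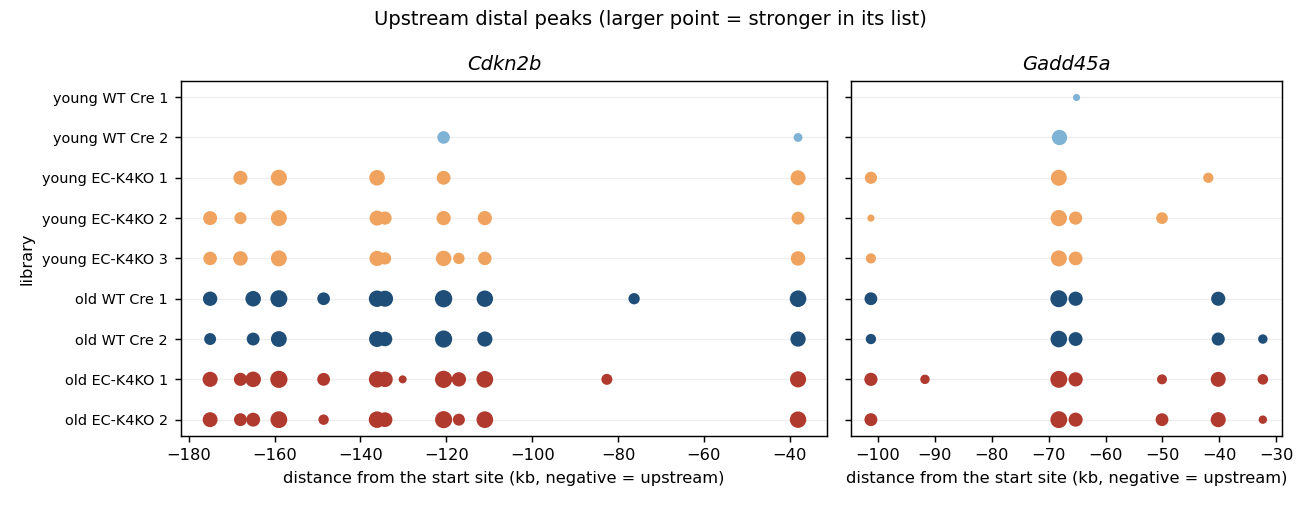
Points are distal peaks upstream of Cdkn2b (left) and Gadd45a (right) in each library, at the distance of their region from the start in kb (horizontal axis), with larger points for peaks that are stronger within the list. The young WT Cre lists, the shortest, hold the fewest peaks of the Cdkn2b chain, and 73.1% of recurrent distal regions of all genes were absent from both. The peaks 168 kb upstream are found only in the 5 EC-K4KO libraries.

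Gadd45a had 3 recurrent intergenic regions, 65259 bp (chromosome 6, 67102249 to 67103051, 7 libraries), 68210 bp (67105314 to 67105852, 8 libraries) and 101245 bp upstream (67138376 to 67138967, 7 libraries). The strongest, 68210 bp upstream, had fold enrichments of 5.37 in young WT Cre replicate 2, 3.86, 7.56 and 6.50 in young EC-K4KO, 7.07 and 7.66 in old WT Cre, and 9.30 and 8.94 in old EC-K4KO. Its percentile among distal regions was flat, from 64.3 to 76.9 in young EC-K4KO, 70.1 and 71.0 in old WT Cre and 70.7 and 71.9 in old EC-K4KO. Its window holds an ETS match at bases 118 to 123 and an AP-1 match at bases 206 to 212. Rb1 had 1 region 21709 bp upstream in 6 libraries at ranks of 36.1% to 69.8%, and Lmnb1 1 intronic region 1144 bp past its start in 6 libraries at ranks of 22.4% to 49.1%. Distal peaks of Cdkn1a, Cdkn2a and Mdm2 recurred in no more than 2 libraries, the strongest being the intronic peak of Cdkn1a in young EC-K4KO replicate 1 at 9.98%, a peak 64588 bp downstream of the Cdkn2a starts at 43.0% and a peak 33601 bp downstream of the Mdm2 start, in an intron of the neighbouring gene Cpm, at 78.7%.

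Windows of 300 bases at 13 recurrent distal regions, those on chromosome 18 left out, held an AP-1 match in 6, a KLF-type match in 4, an ETS match in 2, an E2F match in 1 and a p53 element in 0. Over 11473 distal regions of all genes found in 5 or more libraries, 18.3% held an AP-1, 39.8% a KLF-type, 11.3% an ETS, 4.27% an E2F and 5.06% a p53 element with up to 2 mismatches. In the 10 promoter windows of 8 members that RefSeq listed, GC content ran from 52.7% to 77%, against a median of 52.7% over all promoters. Openness went with GC content over all genes, with 0% open in all 9 libraries under 40% GC, 3.12% at 40 to 50%, 13.6% at 50 to 60%, 27.6% at 60 to 70% and 21.9% over 70%. All 10 genes had a mean over 50% GC around their starts.

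The wider pathway, 63 other genes in 6 roles, is given by presence first. Of these, 20 were open in every library, 7 in none, and 14 were absent from young WT Cre and open in all 7 others. Among the 11931 genes of the series open in at least 1 library, 27% and 17% had the first and the last of these patterns. The counts open in every library were 3 of 9 other CDK inhibitors and brakes, 5 of 14 cyclins, CDKs and E2F factors, 6 of 20 genes of the p53 circuit, 2 of 4 lamina genes, 2 of 10 secreted senescence factors and 2 of 6 regulators of the Ink4a/Arf locus and the secretory state. Il6, a cytokine of the senescent secretome, was open in 1 old EC-K4KO library, and Ccl2 and Mmp3 in none. Of the 20 genes open in every library, 0 passed an adjusted p of 0.05 in either direction. For age, 5 had an unadjusted p under 0.05, each 0.0167 in the exact permutation test with an adjusted p of 0.117, a share near the 23.3% of all promoters. Chek2, a kinase of the DNA damage checkpoint, was higher in old libraries by 28.1 points. Igfbp7, a secreted senescence factor, differed by -34.4 points, the lamin B receptor gene Lbr by -19.0, the p53 target Plk2 by -18.1 and Rela, the p65 subunit of NF-κB, by -9.13. The median old minus young difference over the 20 genes was -4.17 points against 0.45 over all 3223 promoters. For genotype, where 9.15% of all promoters did, Plk2 alone of the 20 had an unadjusted p under 0.05, with a difference of -8.15 points (exact permutation test, adjusted p = 0.316). The single genes in this paragraph were named after their values were seen.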

How the data were processed

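Omni-ATAC-seq libraries of mouse brain endothelial nuclei were trimmed, aligned to mm10 (GRCm38) with Bowtie2, filtered for duplicates and mapping quality, and called with MACS2 in broad mode by the authors, each library on its own, as the methods and the submitters' processing notes state. The deposited peak lists gave for each peak a score, a fold enrichment (ratio over the local background) and −log10 of the p-value and q-value, all from the authors' peak caller. HOMER annotation by the authors gave the distance to the nearest TSS, a class and a gene name. No read counts were used here, so depth is unknown and absent peaks are only peaks not called.

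TSSs came from protein-coding transcripts of GENCODE M21 (basic set, 21911 genes), and all 253457 peaks lay inside GRCm38 chromosomes. A promoter peak covered a TSS by at least 1 bp. Lists were ordered by −log10 p. Percentiles and widths of the 3223 promoters open in all 9 libraries were compared between genotypes within age, and between ages within genotype. The test was exact permutation of the library labels (two-sided, 60 arrangements) with Benjamini-Hochberg adjustment, checked on simulated data, and the interaction of genotype and age was tested likewise. The study's own test on read counts could not be made on peak lists. A single contrast of 3 against 2 libraries cannot go below p = 0.1 by exact permutation, nor 2 against 2 below 0.333. Distal peaks were merged over libraries by at least 1 bp. Motifs were searched in 300-base windows of RefSeq promoters and GRCm38 distal regions.

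All 10 genes were named, with distal regions found in 5 or more libraries, the strongest distal region of each gene, and up to 3 pathway genes with the same presence as a gene open in 2 to 8 libraries, 1 of which is not reported here. Exceptions are said to have been chosen after their values were seen. The members, the pathway and marker lists and the tests were chosen with earlier results of these data known. Alternatives were a −log10 q above 2, equal list lengths, a TSS window of 1000 bp, ranking by fold, all genes with missing peaks ranked last, width as a percentile, overlap of 50% of the shorter peak, leaving out each library, a replicate block, and leaving out young WT Cre. The replicate numbers carried no stated pairing. Computation used Python 3.11.15, numpy 2.4.6 and pandas 2.3.3.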

Additional observations from a re-analysis of the deposited data

How the results depend on the processing

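Over the alternatives that keep all libraries or drop a whole group, 140 of 172 values kept their direction and side of the threshold, and over those leaving out 1 library 243 of 270 did. No setting gave an adjusted p under 0.05, but in some none could. The smallest p of the exact permutation test was 0.0556 without 1 young EC-K4KO library and 0.1 for EC-K4KO libraries alone. It was 0.125 with the replicate block and 0.333 for old libraries alone. There the side of the threshold was fixed in advance. In the main setting, adjustment over 3223 promoters passes 0.05 only if very many promoters reach the smallest p. With lists cut to equal length, the mean number of member genes with a TSS peak was 5 for old libraries of WT Cre and 5 for those of EC-K4KO, and the mean number of distal peaks was 2.5 in old WT Cre, 1.67 for the young and 3.5 for the old knockout libraries. With a −log10 q above 2 the distal mean of young WT Cre was 2. Recurrent regions numbered 14 in the main setting, 14 with 50% overlap or without young WT Cre, and 13 with the stricter q. Cutting the 7 longer lists to equal length, chosen after seeing the data, left Gadd45b peaks in 3 of 5 EC-K4KO libraries and the Cdkn2b region 168 kb upstream in 4.

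Several differences changed sign, none of them called, and the cause was not tested. For EC-K4KO minus WT Cre, ranking all genes gave -2.27 points for Cdkn1a and -1.08 for Lmnb1. Width as a percentile gave -10.9 for Cdkn1b, -3.28 for Mdm2 and -3.07 for Lmnb1. Old libraries alone, a setting chosen after seeing the data, gave -3.00 points for Cdkn1a, 1.47 for Gadd45a and a Cdkn1a width difference of 12 bp. For old minus young, ranking by fold gave -1.62 points for Cdkn1a and -8.91 for Gadd45a, ranking all genes -2.64 for Cdkn1a and -2.56 for Cdkn1b, and width as a percentile -18.2 for Cdkn1b and -1.07 for Mdm2. EC-K4KO libraries alone, also chosen afterwards, gave -1.34 points for Cdkn1a. Leaving out 1 library at a time, the genotype percentile difference ran from -1.74 to 2.94 for Cdkn1a and from -3.03 to 8.76 for Lmnb1, the genotype width difference from -375.5 to 71 bp for Cdkn1a, from -49.8 to 310.7 bp for Gadd45a and from -213.7 to 296.8 bp for Lmnb1, and the age percentile difference from -5.96 to 8.43 for Cdkn1b.

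The number of promoters at an unadjusted p under 0.05 was 1588 for genotype and 2424 for age when all genes were ranked, and 436 and 525 for width as a percentile. It was 0 without any 1 of the young EC-K4KO libraries, where the exact permutation test cannot go below 0.0556. With the replicate block, the genotype comparison had a smallest exact permutation p of 0.125 and so 0 such promoters. Same-numbered libraries correlated by 0.0343 to 0.0689 in their deviations from the group mean. By construction, each knockout library correlates with the WT Cre libraries of its age by equal and opposite values. These correlations therefore cannot tell whether same-numbered libraries share more than a number. The depth behind each list is unknown, so a missing peak cannot be told apart from a shallow library.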
